A study of Mus musculus with 12 samples.

Results

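Genes that cut, protect or cross-link the extracellular matrix were compared across 4 kinds of cultured mouse cells by RNA sequencing. The 51 members are every matrix metalloproteinase (Mmp, 23 genes), tissue inhibitor of metalloproteinases (Timp, 4), ADAMTS protease (Adamts, 19) and lysyl oxidase (Lox and Loxl1 to Loxl4, 5) listed by symbol among the 24537 genes of the expression table. They were taken by name, whatever their level. Of these, 33 reached 1 FPKM in at least 3 of the 12 libraries and could be tested, namely 13 Mmp, 3 Timp, 12 Adamts and all 5 lysyl oxidase genes. FPKM counts fragments for each kilobase of a transcript and corrects for library depth, so genes can be set side by side per length.

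All 12 cultures came from mice of the strain Pdgfra-creERxLSL-tdTomato, in which Cre expressed from Pdgfra can switch on a red fluorescent reporter in mesenchymal cells. The series gives 3 mice and 1 culture per mouse in each of 4 groups. Adipose-derived stromal cells positive for Pdgfra (ADSCs) were from subcutaneous adipose tissue and were grown in DMEM with serum. Induced stratified epithelial progenitors (iSEPs) are epithelial cells obtained by conversion of such stromal cells, either in culture (in vitro iSEPs) or inside the animal with culture afterwards (in vivo iSEPs). Keratinocytes were primary cultures from back skin. The last 3 groups were all grown in keratinocyte medium without serum, so medium and cell type cannot be told apart in any comparison with ADSCs. The converting factors and the age of the mice are not given in the labels.

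The matrix around stromal cells is built and removed by these gene families together. MMPs are zinc proteases that are made as inactive precursors and degrade collagens, laminins and many surface proteins. TIMPs bind the active site of MMPs, and TIMP3 also blocks several ADAM and ADAMTS enzymes. ADAMTS proteases process procollagens and cleave proteoglycans such as aggrecan and versican. Lysyl oxidases oxidize lysines in collagen and elastin, the step that cross-links the fibres. In skin, dermal fibroblasts make most of the fibrillar matrix, while keratinocytes rest on a basement membrane and use proteases when they migrate over a wound.

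Between 21010000 and 27770000 reads fell in listed genes per library. The summed level of 8 stromal markers was 4681 to 6097 FPKM in ADSCs and at most 228 FPKM elsewhere, and that of 8 keratinocyte markers was 12.5 to 14.6 FPKM in ADSCs and at least 11434 FPKM elsewhere. The adipocyte markers Adipoq and Plin1 were listed at 0 in every library, ADSCs included, and Cidec was at most 0.02 FPKM. A further adipocyte marker, Fabp4, was at 17.4, 20.5 and 24.9 FPKM in ADSCs, and the summed level of all 5 such markers was 17.4 to 24.9 FPKM there, 2.73 to 4.05 FPKM in keratinocytes, 12.3 to 20.1 FPKM in in vitro iSEPs and 1.13 to 6.49 FPKM in in vivo iSEPs. A single library stood apart: the in vivo iSEPs of mouse 3 held the simple-epithelium keratin Krt8 at 103 FPKM against 0.159 and 0.166 in the other in vivo iSEPs, and the basal keratin Krt5 at 3410 FPKM against 9804 and 9252. The epithelial marker Epcam was at 116 FPKM there against 16.6 and 6.87. Keratinocytes held Krt8 at 33.6, 21.9 and 27.9 FPKM, Krt5 at 8758, 8692 and 9454 FPKM and Epcam at 162, 138 and 139 FPKM. In ADSCs of mouse 2 the macrophage gene Lyz2 was at 50.5 FPKM against 4.54 and 7.94. Folds of in vivo iSEPs that the library of mouse 3 moved widely are given with and without it. In the values below, 3 numbers in a row are always mouse 1, mouse 2 and mouse 3.

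Most members were highest in ADSCs. Of the 33 tested, 26 had their highest group mean there, 2 in in vitro iSEPs (Mmp10 and Mmp13), 2 in in vivo iSEPs (Mmp12 and Adamts16) and 3 in keratinocytes (Mmp9, Mmp15 and Adamts15). Compared with ADSCs, 30 members were called in keratinocytes (4 higher and 26 lower), where 53.5% of all 12364 genes tested were called, 32.8% higher and 20.7% lower. In in vitro iSEPs 23 were called (2 higher and 21 lower), against 53.8% of all genes, 32.1% higher and 21.7% lower. For in vivo iSEPs the count was 30 (4 higher and 26 lower), against 47.6% of all genes, 27.6% higher and 20.0% lower. The median log2 difference of the members from ADSCs was -2.40 in keratinocytes, -2.18 in in vitro iSEPs and -2.35 in in vivo iSEPs, where the median over all genes tested was 0.18, 0.15 and 0.14. A call here is an adjusted p below 0.05 (limma, two-sided, Benjamini-Hochberg over all genes tested), and log2 differences are on the log2(FPKM + 1) scale. The groups did not overlap with ADSCs for 31 members in keratinocytes, 23 in in vitro iSEPs and 29 in in vivo iSEPs, against 69.5%, 63.7% and 54.2% of all genes tested.

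The filter favours genes that are high in at least 1 group, ADSCs or another, so these counts were read with it in view. Of the 33 tested, 8 members passed through ADSC libraries alone, namely 6 of the 12 Adamts genes (Adamts2, Adamts6, Adamts9, Adamts10, Adamts12 and Adamts14) and 2 of the 13 Mmp genes (Mmp17 and Mmp23). Such genes had to be lower elsewhere, so their values below are a description with no test. Among the other 25, which reached 1 FPKM in at least 3 libraries outside ADSCs, 18 fell in keratinocytes, 13 in in vitro iSEPs and 18 in in vivo iSEPs, where 16.1%, 17.3% and 15.5% of the 11598 genes that passed in the same way fell. Those 11598 genes include genes absent from ADSCs, which lowers the share that fell. Mmp9, Mmp12, Mmp15 and Adamts16 stayed below 1 FPKM in every ADSC library and passed through other groups. Their rises over ADSCs below are therefore a description as well. Scaling each library to its median moved all genes to 24.1% higher and 25.6% lower in keratinocytes against ADSCs, 25.2% and 26.1% in in vitro iSEPs, and 22.2% and 23.8% in in vivo iSEPs, and left 26, 22 and 26 members lower. The p values measure the spread between these cultures, and in bulk RNA fewer cells of a type and less RNA per cell cannot be told apart.

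**Figure D1:**
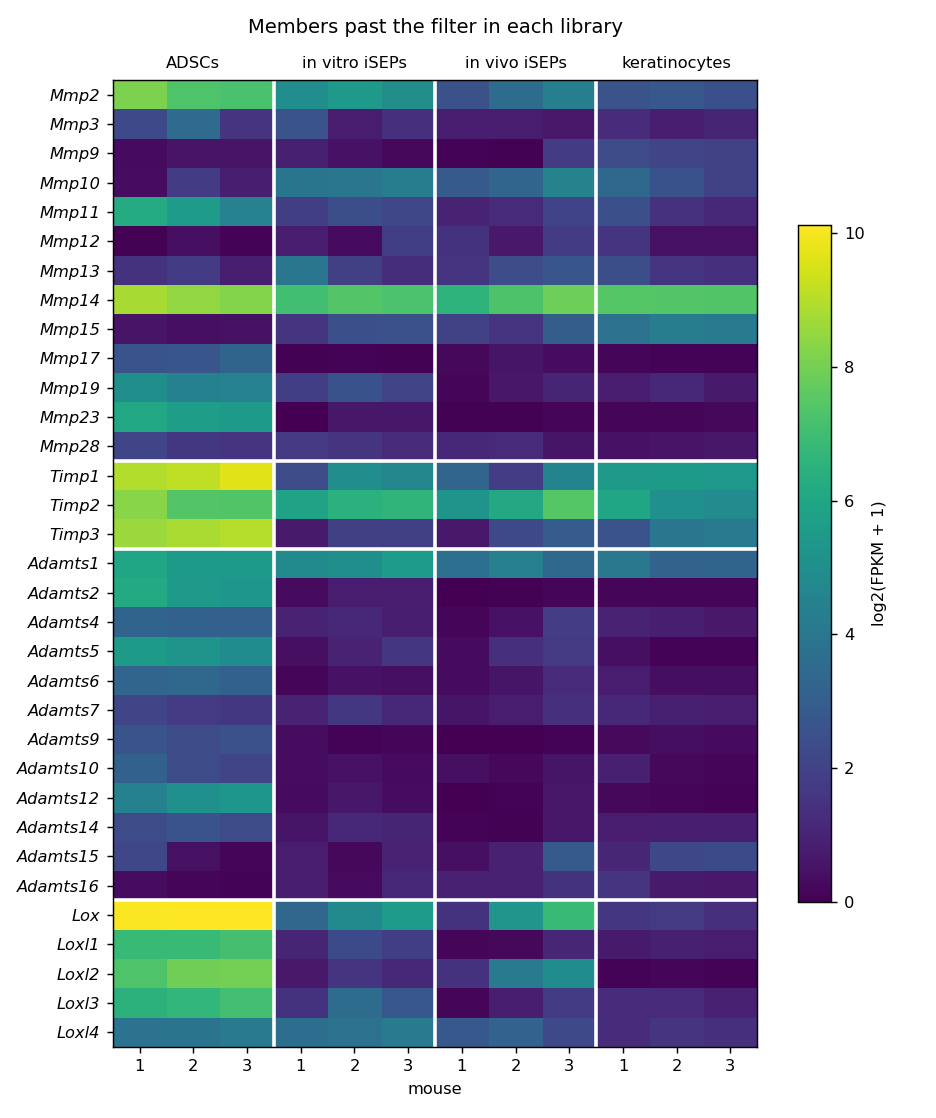
Level of the 33 tested members in each of the 12 libraries, as log2(FPKM + 1) on a colour scale from 0 upwards; rows are genes grouped as Mmp, Timp, Adamts and lysyl oxidase, and columns are mice 1 to 3 within each group. Timp1, Timp3, Lox, Loxl1, Loxl2 and Loxl3 are bright in the 3 ADSC libraries and dark to intermediate in the other 9, while Mmp14 stays above 6 in every library.

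The inhibitors fell together. All 3 tested Timp genes were lower in each of the other groups than in ADSCs, by 2.33- to 217-fold in mean FPKM. Timp1 (mm10 chromosome X, 20870166 to 20874737), a secreted MMP inhibitor that is strongly inducible, was at 491, 567 and 820 FPKM in ADSCs. It was at 42.5, 45.2 and 40.9 FPKM in keratinocytes, 4.17, 30.2 and 24.2 FPKM in in vitro iSEPs and 8.88, 2.56 and 22.9 FPKM in in vivo iSEPs. Every ADSC library was above every other library, and both kinds of iSEPs lay below the keratinocytes without overlap. The log2 difference from ADSCs was -3.80 ± 0.71 (SE) in keratinocytes (limma adjusted p = 0.000912), -5.26 ± 0.71 in in vitro iSEPs (adjusted p = 8.6e-05) and -6.02 ± 0.71 in in vivo iSEPs (adjusted p = 3.41e-05). The gap between iSEPs and keratinocytes did not pass, at -1.46 (95% interval -3.02 to 0.10, adjusted p = 0.206) in vitro and -2.22 (-3.78 to -0.66, adjusted p = 0.086) in vivo. Without the in vivo iSEPs of mouse 3 the latter was -2.89 (adjusted p = 0.0183), and the fold of Timp1 below ADSCs was 109 in place of 54.7.

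Timp3, the inhibitor that binds to the matrix itself, showed the widest fall of the family. It was at 388, 452 and 509 FPKM in ADSCs, 5.03, 14.7 and 17.7 FPKM in keratinocytes, 0.675, 2.74 and 2.79 FPKM in in vitro iSEPs and 0.595, 3.69 and 6.80 FPKM in in vivo iSEPs. ADSCs did not overlap with any other group, and all 3 in vitro iSEP cultures were below all keratinocyte cultures. Mean levels were 217-fold lower in in vitro iSEPs (log2 difference -7.28 ± 0.57, adjusted p = 1.3e-06), 122-fold lower in in vivo iSEPs (adjusted p = 2.28e-06) and 36.1-fold lower in keratinocytes (adjusted p = 1.84e-05). Timp3 was also 6.03-fold lower in in vitro iSEPs than in keratinocytes (log2 difference -2.07 ± 0.57, adjusted p = 0.041), a call that was lost in several alternatives, with an adjusted p of 0.282 without mouse 2, 0.145 without the keratinocytes of either mouse 2 or mouse 3 and up to 0.118 without 1 in vitro culture. In vivo iSEPs against keratinocytes gave -1.64 (adjusted p = 0.112), or 0.0149 with the mouse as a block, 0.0155 without mouse 1 and 0.031 without the in vivo iSEPs of mouse 3, a culture whose omission made Timp3 210-fold lower in vivo than in ADSCs.

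Timp2, which besides inhibiting MMPs takes part in the activation of pro-MMP2 by MMP14 at the cell surface, kept the highest Timp level in both kinds of iSEPs. Its values were 316, 172 and 166 FPKM in ADSCs, 61.3, 32.7 and 28.3 FPKM in keratinocytes, 55.3, 86.7 and 98.1 FPKM in in vitro iSEPs and 37.2, 67.6 and 176 FPKM in in vivo iSEPs. The in vivo culture of mouse 3 lay within the range of ADSCs, and the other groups were below ADSCs without overlap. Timp2 was 5.34-fold lower in keratinocytes (log2 difference -2.40 ± 0.50, adjusted p = 0.00203). Its fall in in vitro iSEPs (-1.41 ± 0.50, adjusted p = 0.035) and in in vivo iSEPs (-1.43 ± 0.50, adjusted p = 0.0361) missed the threshold with the mouse as a block (adjusted p = 0.0535 and 0.0554) and without any single ADSC culture, where the adjusted p reached 0.127 and 0.132 without that of mouse 1. The same calls were lost without the in vitro culture of mouse 1 (0.112) or mouse 2 (0.0592), and without the in vivo culture of mouse 1 (0.131) or mouse 2 (0.0919). Both were also lost without all cultures of mouse 1 (0.11 and 0.242) or of mouse 2 (0.14 and 0.195) and with no filter (0.0586 and 0.0601). Of 17 alternatives, 9 lost the in vitro call and 10 the in vivo call. Without the in vivo iSEPs of mouse 3 the in vivo difference was -2.03 (adjusted p = 0.00182), a 4.16-fold fall in place of 2.33-fold. Timp2 made up 17.3% ± 8.04 (SD, n = 3) of the summed Timp level in ADSCs, 41.4% ± 13.0 in keratinocytes, 80.9% ± 9.98 in in vitro iSEPs and 85.6% ± 5.92 in in vivo iSEPs. Timp4 was listed at 0 in all 9 libraries outside ADSCs and at 0 to 0.111 FPKM in ADSCs (0 to 5 reads), so no comparison was made. Timp1, Timp3 and Timp4 each lie inside a synapsin gene on the opposite strand, and those synapsin genes did not exceed 0.937 FPKM in any library.

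**Figure D2:**
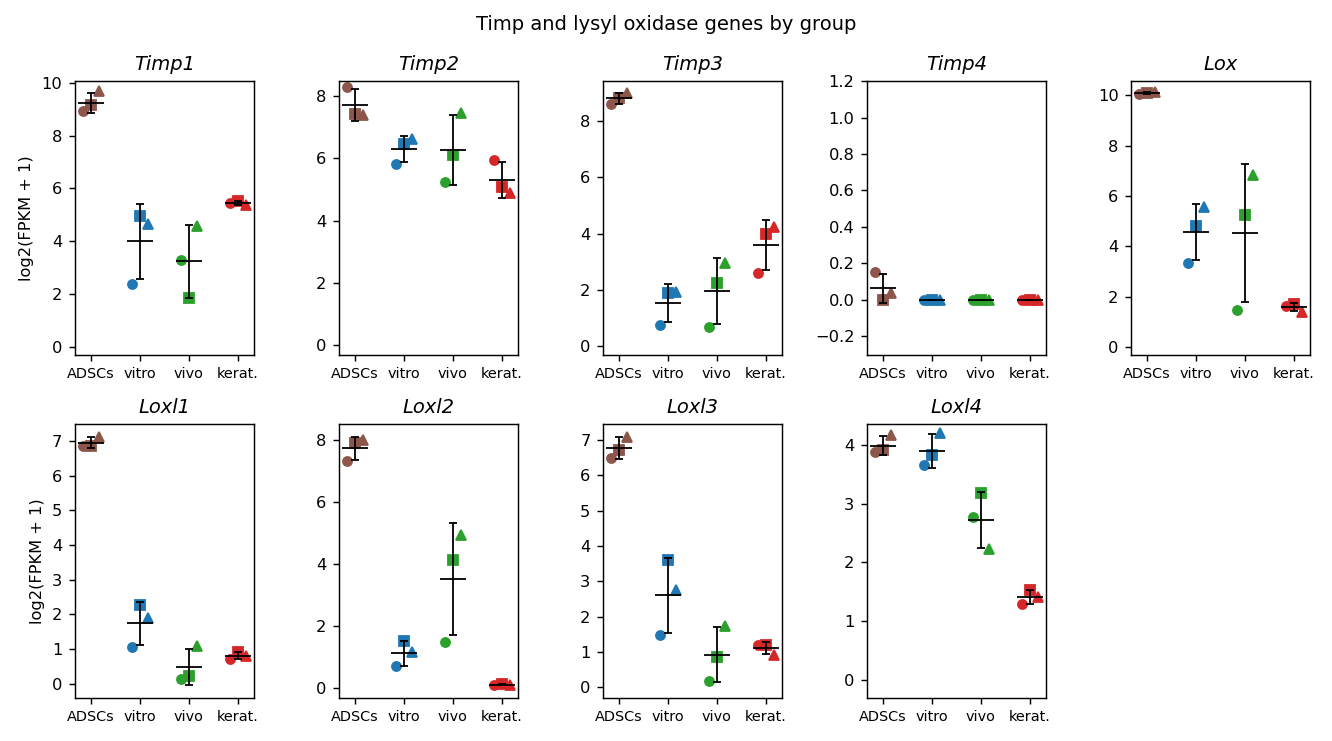
Timp and lysyl oxidase genes in each library, as log2(FPKM + 1) on the vertical axis; circles, squares and triangles are mice 1, 2 and 3, horizontal lines are group means and bars 1 SD (n = 3), in ADSCs, in vitro iSEPs (vitro), in vivo iSEPs (vivo) and keratinocytes (kerat.). Among the lysyl oxidases, Loxl4 alone is level between ADSCs and in vitro iSEPs, and the in vivo iSEPs spread widely for Lox and Loxl2.

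The lysyl oxidases were far higher in ADSCs. All 5 fell in keratinocytes (median log2 difference -6.15) and in in vivo iSEPs (-5.56), and 4 of 5 fell in in vitro iSEPs (-5.22). Lox, the founding enzyme of the family, was among the most abundant members at 1059, 1097 and 1115 FPKM in ADSCs. It was at 2.07, 2.28 and 1.66 FPKM in keratinocytes, 9.14, 27.3 and 45.7 FPKM in in vitro iSEPs and 1.80, 37.4 and 113 FPKM in in vivo iSEPs. ADSCs stood clear of all other libraries, in vitro iSEPs were all above keratinocytes, and in vivo iSEPs ran from the keratinocyte level in mouse 1 to the highest level outside ADSCs in mouse 3. Lox was 544-fold lower in keratinocytes (log2 difference -8.51 ± 1.04, adjusted p = 4.18e-05), 39.8-fold lower in in vitro iSEPs (adjusted p = 0.000993) and 21.5-fold lower in in vivo iSEPs (adjusted p = 0.00107) than in ADSCs. Without the in vivo iSEPs of mouse 3 the in vivo fall of Lox was 55.6-fold (log2 difference -6.72, adjusted p = 0.000116). Against keratinocytes neither kind of iSEPs passed, at 2.99 (95% interval 0.69 to 5.28, adjusted p = 0.0892) in vitro and 2.95 (0.65 to 5.24, adjusted p = 0.116) in vivo. The in vitro gap passed in a fit of only those groups (adjusted p = 0.0104) and without mouse 1 (0.012), and the in vivo gap passed without the in vivo iSEPs of mouse 1 (0.00152) and was 1.79 without those of mouse 3 (0.236).

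Loxl1, which is best known for cross-linking elastin, was at 116, 116 and 139 FPKM in ADSCs and at most 3.82 FPKM in any other library. It was 165-fold lower in keratinocytes (log2 difference -6.15 ± 0.31, adjusted p = 3.26e-08), 48.9-fold lower in in vitro iSEPs (adjusted p = 1.29e-07) and 269-fold lower in in vivo iSEPs (adjusted p = 2.51e-08), or 969-fold without the in vivo culture of mouse 3. Loxl3, a further cross-linking enzyme of collagen, was at 89.7, 104 and 137 FPKM in ADSCs, 1.31, 1.29 and 0.890 FPKM in keratinocytes, 1.80, 11.1 and 5.75 FPKM in in vitro iSEPs and 0.124, 0.819 and 2.35 FPKM in in vivo iSEPs. Both genes were separate from all other groups in ADSCs, and for both the in vitro iSEPs were above keratinocytes without overlap. That last gap did not pass, at 0.93 for Loxl1 (95% interval 0.25 to 1.61, adjusted p = 0.0763) and 1.51 for Loxl3 (0.43 to 2.58, adjusted p = 0.071), and leaving out the in vitro culture of mouse 1 brought both past it (adjusted p = 0.0179 and 0.0145). The log2 difference of Loxl3 from ADSCs was -5.67 in keratinocytes (adjusted p = 2.58e-06), -4.16 in in vitro iSEPs (adjusted p = 3.01e-05) and -5.85 in in vivo iSEPs (adjusted p = 2.23e-06), where its mean was 100-fold lower, or 234-fold without mouse 3 of that group. The transcript of Loxl3 overlaps Htra2 on the opposite strand, whose group means were 23.7 to 33.8 FPKM.

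Loxl2 (chromosome 14, 69609476 to 69695834), an enzyme that acts on the type IV collagen of basement membranes, had the largest fold of all members. It was at 159, 241 and 255 FPKM in ADSCs and 0.064, 0.094 and 0.077 FPKM in keratinocytes (10 to 14 reads per library), a 2788-fold difference in mean FPKM (log2 difference -7.64 ± 0.67, adjusted p = 2.98e-06). In vitro iSEPs were at 0.626, 1.86 and 1.23 FPKM, 176-fold below ADSCs (adjusted p = 9.6e-06). In vivo iSEPs were at 1.78, 16.7 and 29.5 FPKM, 13.7-fold below ADSCs (log2 difference -4.23 ± 0.67, adjusted p = 0.000321), or 23.7-fold without mouse 3 of that group (-4.94, adjusted p = 5.54e-05). All libraries of both kinds of iSEPs were above all keratinocyte libraries. The rise over keratinocytes passed in vivo (3.41 ± 0.67, adjusted p = 0.0114) and not in vitro (1.02 ± 0.67, adjusted p = 0.354). The in vivo call held without the in vivo iSEPs of mouse 3 (2.70, adjusted p = 0.0143) and was lost without those of mouse 2 (0.0568), without the keratinocytes of mouse 2 (0.0526), without all cultures of mouse 2 (0.358) or of mouse 3 (0.0934), and in a fit of only these groups (0.084). The order of the in vivo cultures in Lox and Loxl2 was shared by some markers of pericytes and smooth muscle. Acta2 was at 798, 2660 and 2943 FPKM and Cnn1 at 4.11, 13.9 and 31.4 FPKM. Cspg4 (0.182, 0.21 and 0.039 FPKM) and Des (0.047, 0.097 and 0.031 FPKM) did not share it. The summed level of 6 such markers was 802 to 2983 FPKM in in vivo iSEPs, 185 to 440 FPKM in keratinocytes, 359 to 566 FPKM in in vitro iSEPs and 1523 to 3139 FPKM in ADSCs, and of the 6 the pericyte gene Rgs5 and the muscle gene Des stayed below 0.1 FPKM in vivo. Of the 8 stromal markers, all but Lum shared the in vivo order of Lox and Loxl2. Vim was at 26.5, 47.0 and 148 FPKM and Col1a1 at 0.673, 0.821 and 4.26 FPKM. The part of either set of markers in the Lox and Loxl2 levels was not tested.

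Loxl4 (chromosome 19, 42592279 to 42612806), which like Loxl2 and Loxl3 carries scavenger receptor domains, departed from the other lysyl oxidases. Its values were 13.6, 14.1 and 17.0 FPKM in ADSCs, 11.6, 13.2 and 17.4 FPKM in in vitro iSEPs, 5.82, 8.03 and 3.69 FPKM in in vivo iSEPs and 1.45, 1.91 and 1.65 FPKM in keratinocytes. ADSCs and in vitro iSEPs overlapped, in vivo iSEPs lay below both, and keratinocytes lay below all. The difference between in vitro iSEPs and ADSCs was -0.09 (95% interval -0.59 to 0.41, adjusted p = 0.761). Against keratinocytes, Loxl4 was 8.43-fold higher in in vitro iSEPs (log2 difference 2.48 ± 0.23, adjusted p = 0.000243) and 3.50-fold higher in in vivo iSEPs (1.31 ± 0.23, adjusted p = 0.00614). The in vitro call held in all 17 alternatives, with a highest adjusted p of 0.0166. The in vivo call was lost without all cultures of mouse 1 (0.0508) or of mouse 2 (0.236). Loxl4 was 0.955% ± 0.0629 (SD, n = 3) of the summed lysyl oxidase level in ADSCs, 29.6% ± 3.33 in keratinocytes, 31.6% ± 14 in in vitro iSEPs and 25.2% ± 31.0 in in vivo iSEPs.

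Among the MMPs, the membrane-type enzymes split. Mmp14 (chromosome 14, 54431598 to 54442456), the membrane-anchored collagenase that activates pro-MMP2, was the most abundant Mmp in all 4 groups. It was at 449, 361 and 305 FPKM in ADSCs, 133, 170 and 151 FPKM in in vitro iSEPs, 93.3, 156 and 237 FPKM in in vivo iSEPs and 176, 170 and 167 FPKM in keratinocytes. All ADSC libraries were above the rest, and the other 3 groups overlapped. The fall from ADSCs was 2.17-fold in keratinocytes (log2 difference -1.10 ± 0.27, adjusted p = 0.00594), 2.45-fold in in vitro iSEPs (adjusted p = 0.0023) and 2.29-fold in in vivo iSEPs (adjusted p = 0.00268), and the calls in keratinocytes and in vivo iSEPs were lost without mouse 2 (adjusted p = 0.0922 and 0.0611). Against keratinocytes the difference was -0.18 both in vitro (95% interval -0.79 to 0.42, adjusted p = 0.715) and in vivo (-0.78 to 0.43, adjusted p = 0.768). Mmp14 made up 52.7% ± 3.3 (SD, n = 3) of the summed Mmp level in ADSCs, 81.1% ± 1.85 in keratinocytes, 66.8% ± 2.72 in in vitro iSEPs and 81.0% ± 2.47 in in vivo iSEPs.

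Mmp15 (chromosome 8, 95352296 to 95374293), a second transmembrane MMP, went the other way. It was at 0.429, 0.324 and 0.366 FPKM in ADSCs, 1.91, 4.55 and 4.72 FPKM in in vitro iSEPs, 2.98, 1.92 and 6.94 FPKM in in vivo iSEPs and 12.9, 18.1 and 17.2 FPKM in keratinocytes. The keratinocytes were highest, both kinds of iSEPs were between, and neither overlapped with keratinocytes or ADSCs. The rise over ADSCs was 43.0-fold in keratinocytes (log2 difference 3.62 ± 0.35, adjusted p = 6.49e-06), 9.98-fold in in vitro iSEPs (adjusted p = 0.00161) and 10.6-fold in in vivo iSEPs (adjusted p = 0.00186), or 6.56-fold without the in vivo culture of mouse 3. Compared with keratinocytes, Mmp15 was 4.31-fold lower in in vitro iSEPs (log2 difference -1.90 ± 0.35, adjusted p = 0.0074) and 4.07-fold lower in in vivo iSEPs (-1.90 ± 0.35, adjusted p = 0.00855), calls that were lost without mouse 2 (0.0856 and 0.325) and, in vitro, without mouse 1 (0.052). Mmp17, which is anchored by a lipid tail, was at 5.18, 5.47 and 8.64 FPKM in ADSCs and at most 0.473 FPKM elsewhere. It passed the filter through ADSCs alone, and its mean was lower by 77.4-fold in keratinocytes, 129-fold in in vitro iSEPs and 21.6-fold in in vivo iSEPs. The remaining membrane-type genes Mmp16, Mmp24 and Mmp25 stayed below 1 FPKM in every library, and Mmp16 was the highest of them at up to 0.718 FPKM.

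The gelatinases, which cleave denatured collagen and type IV collagen, also split. Mmp2 was at 282, 160 and 149 FPKM in ADSCs, 30.3, 43.2 and 31.2 FPKM in in vitro iSEPs, 4.73, 10.8 and 19.2 FPKM in in vivo iSEPs and 5.02, 5.74 and 4.54 FPKM in keratinocytes. ADSCs were highest and in vitro iSEPs second, both without overlap, and in vivo iSEPs overlapped with keratinocytes. Mmp2 fell 38.6-fold in keratinocytes (log2 difference -4.96 ± 0.39, adjusted p = 1.19e-06), 5.64-fold in in vitro iSEPs (adjusted p = 0.000318) and 17.0-fold in in vivo iSEPs (adjusted p = 6.38e-06). It was 6.84-fold higher in in vitro iSEPs than in keratinocytes (2.54 ± 0.39, adjusted p = 0.00296, or 0.0928 without mouse 2). Mmp9 was at 4.03, 3.31 and 2.89 FPKM in keratinocytes, 0.218, 0.463 and 0.442 FPKM in ADSCs, 0.851, 0.402 and 0.166 FPKM in in vitro iSEPs and 0.068, 0.042 and 2.43 FPKM in in vivo iSEPs. Keratinocytes were above all other libraries, with the in vivo culture of mouse 3 closest. Only the keratinocytes and that culture reached 1 FPKM, so Mmp9 passed the filter through the group where it was highest. Its calls below are therefore a description. Mmp9 was 9.12-fold higher in keratinocytes than in ADSCs (1.68 ± 0.39, adjusted p = 0.0036, or 0.05 without mouse 2). It was lower than in keratinocytes in in vitro iSEPs (-1.60 ± 0.39, adjusted p = 0.0238) and in in vivo iSEPs (-1.49 ± 0.39, adjusted p = 0.0405). The in vivo call was lost in 13 of 15 alternatives. Among these were the mouse as a block (adjusted p = 0.0643), a pseudocount of 0.1 (0.0646), no filter (0.0666) and median scaling (0.0573). Quantile normalization (0.0635) and a fit of only those groups (0.144) lost it too. The in vivo difference grew without the in vivo iSEPs of mouse 3 (-2.06, adjusted p = 0.000209). The in vitro call was lost with a pseudocount of 0.1 (adjusted p = 0.0752) and without mouse 2 (0.221). Leaving out any single keratinocyte culture ended both calls (adjusted p up to 0.0839 in vitro and 0.131 in vivo), as did leaving out the in vitro culture of mouse 2 (0.0566) or mouse 3 (0.0853) and the in vivo culture of mouse 1 (0.076) or mouse 2 (0.174).

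**Figure D3:**
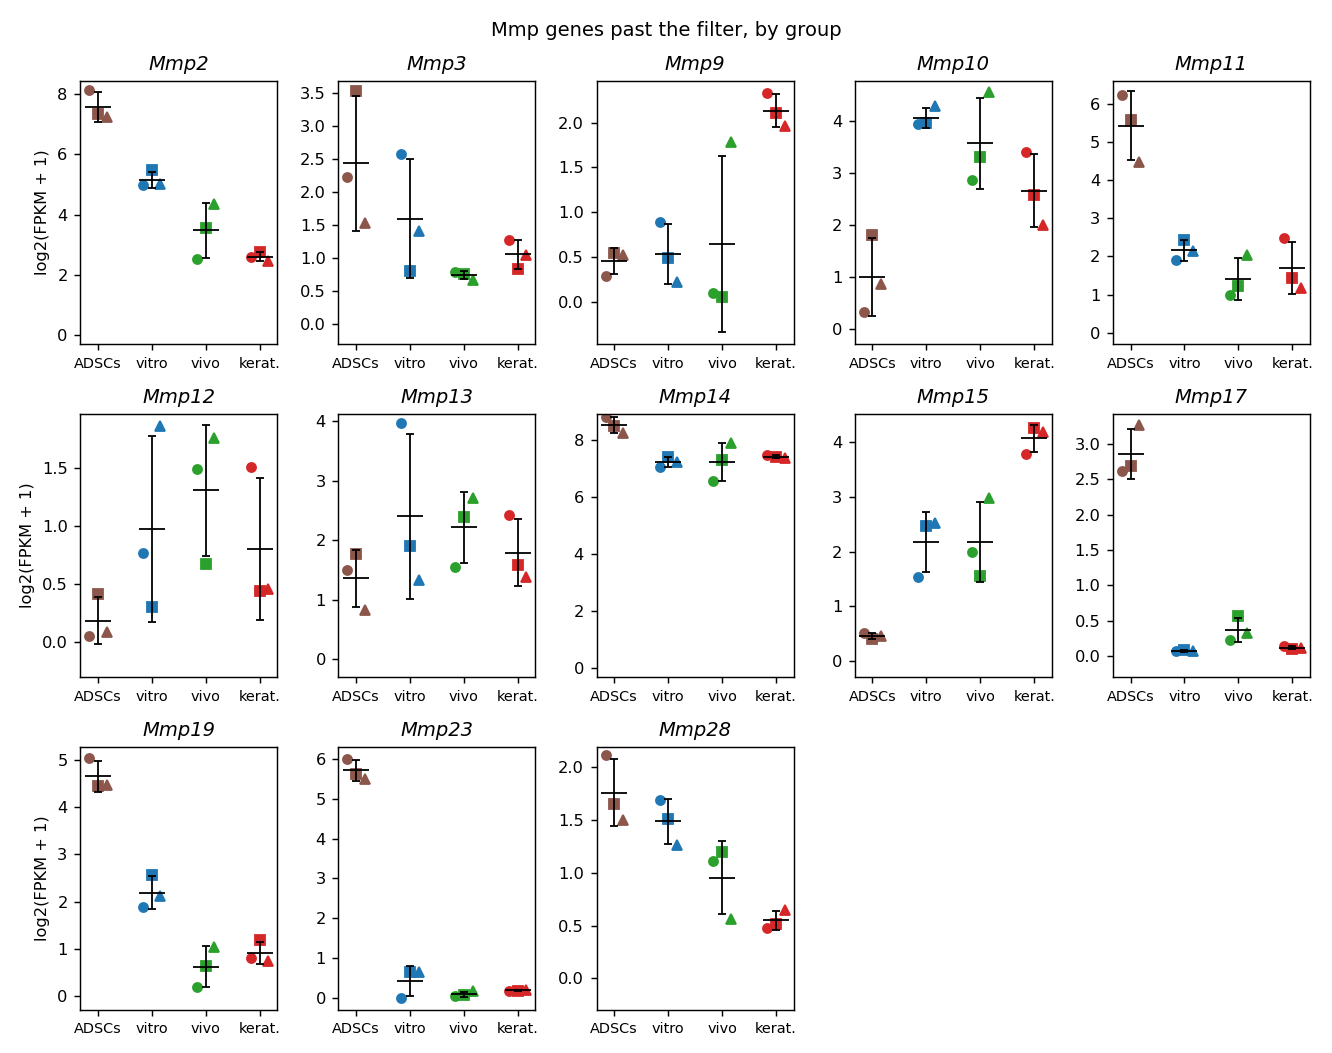
The 13 tested Mmp genes in each library, as log2(FPKM + 1) on the vertical axis, with symbols, means and SD bars (n = 3) by mouse and group. Mmp2, Mmp11, Mmp17, Mmp19 and Mmp23 are highest in ADSCs, Mmp10 is lowest in ADSCs, and Mmp15 rises from ADSCs through the iSEPs to keratinocytes.

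A further set of MMPs was far higher in ADSCs than elsewhere. Mmp23, a small membrane-bound MMP without a hemopexin domain, was at 63.6, 48.7 and 44.2 FPKM in ADSCs and at most 0.571 FPKM in the other libraries. It too passed the filter through ADSCs alone, and its log2 difference from them was -5.53 in keratinocytes, -5.28 in in vitro iSEPs and -5.62 in in vivo iSEPs. Mmp11, or stromelysin 3, a stromal enzyme that furin activates inside the cell, was at 74.7, 46.6 and 21.2 FPKM in ADSCs and 1.00 to 4.57 FPKM in the other libraries. It fell 18.9-fold in keratinocytes (adjusted p = 4.36e-05), 13.5-fold in in vitro iSEPs (adjusted p = 0.000121) and 26.2-fold in in vivo iSEPs (adjusted p = 2.82e-05), or 40.9-fold without the in vivo culture of mouse 3.

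Mmp19, a secreted protease with a broad substrate range, separated the iSEPs from each other. Its levels were 32.0, 21.0 and 21.3 FPKM in ADSCs, 2.68, 4.91 and 3.33 FPKM in in vitro iSEPs, 0.131, 0.556 and 1.06 FPKM in in vivo iSEPs and 0.741, 1.26 and 0.671 FPKM in keratinocytes. In vitro iSEPs were above in vivo iSEPs and keratinocytes without overlap, and the gap to keratinocytes passed (log2 difference 1.28 ± 0.26, adjusted p = 0.0118). It was lost without mouse 2 (0.145), mouse 3 (0.0886) or the keratinocytes of mouse 3 (0.0542). Compared with ADSCs it fell 6.80-fold in in vitro iSEPs (adjusted p = 1.35e-05), 42.6-fold in in vivo iSEPs (adjusted p = 2.76e-07, or 72.1-fold without mouse 3 of that group) and 27.8-fold in keratinocytes (adjusted p = 4.64e-07). Its transcript overlaps Tmem198b on the opposite strand, which was also highest in ADSCs. Group means of Tmem198b were 12.1 FPKM in ADSCs, 2.62 FPKM in in vitro iSEPs, 2.81 FPKM in in vivo iSEPs and 2.87 FPKM in keratinocytes. The part of its reads in the Mmp19 levels was not tested. Mmp28 (epilysin), an MMP that keratinocytes and other epithelia make, had group means of 2.44 ± 0.787 FPKM in ADSCs, 1.82 ± 0.412 FPKM in in vitro iSEPs, 0.975 ± 0.440 FPKM in in vivo iSEPs and 0.465 ± 0.0918 FPKM in keratinocytes (SD, n = 3). Mmp28 fell in keratinocytes (log2 difference -1.21 ± 0.21, adjusted p = 0.000559) and in in vivo iSEPs (-0.80 ± 0.21, adjusted p = 0.00837, or 0.0564 and 0.0732 without mouse 1 or mouse 2). It was higher in in vitro iSEPs than in keratinocytes (0.94 ± 0.21, adjusted p = 0.0178), a call that was lost without any 1 of the 3 mice (adjusted p up to 0.247), without any single keratinocyte culture (up to 0.0729) and without the in vitro culture of mouse 1 (0.0531).

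A cluster of 10 Mmp genes spans 427 kb of chromosome 9 in mm10, in the order Mmp13, Mmp12, Mmp1b, Mmp3, Mmp1a, Mmp10, Mmp8, Mmp27, Mmp20 and Mmp7. Of these, 4 could be tested, and unlike most members only Mmp3 had its highest mean in ADSCs. RefSeq promoters of GRCm38.p6, which run from 250 bases before to 50 bases after each start, were matched for 33 of the 51 members (36 promoters). All 10 genes of the cluster were matched. The members without a match, such as Mmp2, Mmp9, Lox and Loxl2, lie outside the cluster and could not be searched. The AP-1 motif TGAGTCA or its reverse complement TGACTCA is the site of FOS and JUN dimers. It was found in 7 of the 36 promoters of members and in 5.2% of all 32851 promoters of that length. Those 7 belong to 7 of the 33 matched members, all in this cluster (Mmp1a, Mmp1b, Mmp3, Mmp7, Mmp10, Mmp12 and Mmp13). The TEAD motif GGAATG was in 2 of the 33 (Adamts13 and Timp1) and in 14.7% of all promoters, and the RUNX motif TGTGGT was in 6 (Mmp1b, Mmp7, Mmp13, Mmp14, Mmp23 and Mmp27) and in 16.8% of all; every motif was searched on both strands. In Mmp7 and Mmp12 the AP-1 motif lay at an alternative start and not at that of the listed transcript. The 120 bases upstream of the start are printed 5′ to 3′ on the gene's strand for Mmp10, Mmp3 and Mmp13, whose match lies near the start of the listed transcript, and for Mmp1a, the mouse counterpart of human interstitial collagenase, with the motif in capitals.
Mmp10, chr9:7502222-7502341, plus strand: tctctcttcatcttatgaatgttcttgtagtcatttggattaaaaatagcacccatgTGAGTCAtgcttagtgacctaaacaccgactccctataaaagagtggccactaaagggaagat
Mmp3, chr9:7445702-7445821, plus strand: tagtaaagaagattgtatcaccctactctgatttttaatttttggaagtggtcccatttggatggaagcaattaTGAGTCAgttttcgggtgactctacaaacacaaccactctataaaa
Mmp13, chr9:7272394-7272513, plus strand: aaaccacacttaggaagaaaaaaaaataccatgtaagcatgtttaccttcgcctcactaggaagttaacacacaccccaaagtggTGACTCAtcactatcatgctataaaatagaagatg
Mmp1a, chr9:7464021-7464140, plus strand: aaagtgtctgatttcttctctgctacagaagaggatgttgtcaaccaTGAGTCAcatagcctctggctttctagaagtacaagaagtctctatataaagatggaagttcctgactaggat

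The motif begins 63 bases before the start in Mmp10, 46 bases before it in Mmp3, 35 in Mmp13 and 73 in Mmp1a. The 4 genes had unlike levels, and the part of the motif in them was not tested. Mmp10, or stromelysin 2, which migrating keratinocytes make at a wound edge, was at 0.255, 2.47 and 0.811 FPKM in ADSCs, 14.3, 14.5 and 18.4 FPKM in in vitro iSEPs, 6.23, 8.84 and 22.4 FPKM in in vivo iSEPs and 9.58, 4.92 and 2.99 FPKM in keratinocytes. All 9 libraries outside ADSCs were above all ADSC libraries. Mmp10 rose 13.3-fold in in vitro iSEPs (log2 difference 3.06 ± 0.49, adjusted p = 0.000297), 10.6-fold in in vivo iSEPs (2.57 ± 0.49, adjusted p = 0.00114, or 6.39-fold without mouse 3 of that group) and 4.94-fold in keratinocytes (1.66 ± 0.49, adjusted p = 0.0138). The keratinocyte call was lost without mouse 1 (adjusted p = 0.138), without its ADSCs (0.0595) or without its keratinocytes (0.059). In vitro iSEPs were above keratinocytes without overlap, a gap of 1.40 (95% interval 0.33 to 2.47) that did not pass (adjusted p = 0.0878).

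Mmp3, or stromelysin 1, which cleaves proteoglycans and activates other MMPs, was at 3.70, 10.6 and 1.90 FPKM in ADSCs, 4.97, 0.747 and 1.67 FPKM in in vitro iSEPs, 0.737, 0.702 and 0.596 FPKM in in vivo iSEPs and 1.43, 0.793 and 1.08 FPKM in keratinocytes. Its highest value was in the ADSCs of mouse 2, the culture with the raised Lyz2. The summed level of 7 macrophage and leukocyte markers was 63.2 FPKM there, 50.5 FPKM of it from Lyz2, and 6.22 to 23.9 FPKM in all others. Ptprc, Adgre1, Csf1r and Itgam were highest there too, and Adgre1 was listed at 0 outside ADSCs. Cd68 was not (3.05 FPKM against 8.09 to 22.3 FPKM in iSEPs), nor was Cd14 (3.31 FPKM against 3.48 to 6.99 FPKM in keratinocytes). The part of these markers in the Mmp3 level was not tested. The fall in keratinocytes (-1.38 ± 0.49, adjusted p = 0.0349) and in in vivo iSEPs (-1.69 ± 0.49, adjusted p = 0.015) was lost without that culture (adjusted p = 0.149 and 0.0618). The keratinocyte call was also lost without the ADSCs of mouse 1 (0.0592) and without any single keratinocyte culture (up to 0.0969). Mmp13, the main interstitial collagenase of the mouse, was at 1.82, 2.39 and 0.780 FPKM in ADSCs, 14.7, 2.75 and 1.51 FPKM in in vitro iSEPs, 1.94, 4.22 and 5.54 FPKM in in vivo iSEPs and 4.37, 1.99 and 1.60 FPKM in keratinocytes. The groups overlapped and no comparison passed, with the in vitro culture of mouse 1 far above its group. Mmp12, or macrophage elastase, had group means of 0.145 ± 0.166 FPKM in ADSCs, 1.19 ± 1.28 FPKM in in vitro iSEPs, 1.60 ± 0.914 FPKM in in vivo iSEPs and 0.864 ± 0.857 FPKM in keratinocytes (SD, n = 3). Its rise in in vivo iSEPs (1.12 ± 0.42, adjusted p = 0.0474) was lost under median scaling (adjusted p = 0.0747), without the filter (0.0719) and without any single ADSC culture (up to 0.122) and without the in vivo culture of mouse 1 (0.112) or mouse 3 (0.127). Mmp1a and Mmp1b are near copies of each other whose reads the counting could divide, and were at 0 to 0.28 FPKM and 0.063 to 0.497 FPKM. Mmp7, Mmp8, Mmp20 and Mmp27 of the cluster and Mmp21 elsewhere did not exceed 0.385 FPKM in any library, and Mmp20 and Mmp21 were listed at 0 in all 12.

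The ADAMTS genes were mostly higher in ADSCs. Of the 12 tested, 10 fell in keratinocytes, 8 in in vitro iSEPs and 10 in in vivo iSEPs compared with ADSCs, and Adamts16 alone rose. The 6 that passed the filter through ADSCs alone (Adamts2, Adamts6, Adamts9, Adamts10, Adamts12 and Adamts14) had to be lower elsewhere. Among the other 6, 4 fell in keratinocytes, 2 in in vitro iSEPs and 4 in in vivo iSEPs, where 16.1%, 17.3% and 15.5% of all genes that passed outside ADSCs fell. Among the procollagen N-proteinases, which trim fibrillar procollagens before fibres form, Adamts2 was at 71.7, 41.9 and 39.2 FPKM in ADSCs, 0.237, 0.706 and 0.740 FPKM in in vitro iSEPs, 0.025, 0.041 and 0.126 FPKM in in vivo iSEPs and 0.11, 0.091 and 0.101 FPKM in keratinocytes. ADSCs were far above the rest and in vitro iSEPs above both other groups. Its mean was 506-fold lower in keratinocytes, 90.8-fold lower in in vitro iSEPs and 796-fold lower in in vivo iSEPs (1543-fold without mouse 3 of that group), with no test since Adamts2 passed the filter through ADSCs alone. Adamts14, of the same activity, had a mean of 4.36 ± 0.600 FPKM in ADSCs, 0.924 ± 0.388 FPKM in in vitro iSEPs, 0.235 ± 0.297 FPKM in in vivo iSEPs and 0.780 ± 0.029 FPKM in keratinocytes, and is likewise given with no test. Adamts3, the third of this kind, did not exceed 0.324 FPKM.

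Of the enzymes that cleave aggrecan and versican, Adamts1 stayed highest outside ADSCs. It was at 62.7, 45.4 and 44.8 FPKM in ADSCs, 27.8, 31.6 and 46.8 FPKM in in vitro iSEPs, 11.9, 20.1 and 9.36 FPKM in in vivo iSEPs and 15.6, 8.41 and 8.69 FPKM in keratinocytes. In vitro iSEPs overlapped with ADSCs and lay above in vivo iSEPs and keratinocytes, which overlapped with each other. Adamts1 fell 4.67-fold in keratinocytes (log2 difference -2.16 ± 0.30, adjusted p = 0.000122) and 3.70-fold in in vivo iSEPs (-1.86 ± 0.30, adjusted p = 0.000409), while the in vitro difference from ADSCs was -0.53 (95% interval -1.20 to 0.14, adjusted p = 0.163). It was 3.25-fold higher in in vitro iSEPs than in keratinocytes (1.63 ± 0.30, adjusted p = 0.00799), which was lost without mouse 2 (0.0928) or mouse 3 (0.085). Its neighbour Adamts5, 55.0 kb away on chromosome 16 and the main aggrecanase of mouse cartilage, was at 44.7, 36.3 and 29.1 FPKM in ADSCs, 0.327, 1.00 and 2.0 FPKM in in vitro iSEPs, 0.216, 1.65 and 2.29 FPKM in in vivo iSEPs and 0.336, 0.073 and 0.070 FPKM in keratinocytes. ADSCs did not overlap with any group and the other 3 overlapped with each other. Adamts5 fell 230-fold in keratinocytes (-5.01 ± 0.37, adjusted p = 7.86e-07), 33.1-fold in in vitro iSEPs (adjusted p = 3.17e-06) and 26.5-fold in in vivo iSEPs (adjusted p = 4.59e-06). Adamts4 was at 8.64, 7.80 and 7.67 FPKM in ADSCs and 0.119 to 2.56 FPKM elsewhere, and fell in keratinocytes (-2.32 ± 0.34, adjusted p = 0.000147), in vitro iSEPs (adjusted p = 0.000239) and in vivo iSEPs (adjusted p = 0.000153), where its mean was 7.82-fold lower, or 30.7-fold without mouse 3 of that group.

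Adamts9, which cleaves versican and aggrecan, had a mean of 4.58 ± 0.604 FPKM in ADSCs (SD, n = 3) and at most 0.282 FPKM in any other library, and passed the filter through ADSCs alone. Adamts15, an enzyme with similar substrates, did not follow. It was at 3.45, 0.369 and 0.124 FPKM in ADSCs, 0.684, 0.150 and 0.955 FPKM in in vitro iSEPs, 0.320, 0.884 and 6.34 FPKM in in vivo iSEPs and 1.10, 3.58 and 3.80 FPKM in keratinocytes. The ADSC and in vivo groups each held a single high library, and no comparison passed. Adamts8, 21.6 kb from Adamts15 on chromosome 9, and Adamts20 did not exceed 0.225 and 0.418 FPKM.

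Adamts12, a protease that cleaves cartilage oligomeric matrix protein, was at 21.1, 32.8 and 38.8 FPKM in ADSCs and at most 0.564 FPKM elsewhere. It passed the filter through ADSCs alone, and its mean was lower by 249-fold in keratinocytes, 90.0-fold in in vitro iSEPs and 142-fold in in vivo iSEPs (686-fold without mouse 3 of that group). Adamts7, of the same substrate, had group means of 2.56 ± 0.656 FPKM in ADSCs, 1.44 ± 0.626 FPKM in in vitro iSEPs, 0.940 ± 0.624 FPKM in in vivo iSEPs and 0.937 ± 0.246 FPKM in keratinocytes. Its falls in keratinocytes (adjusted p = 0.0121) and in vivo iSEPs (adjusted p = 0.0109) were lost without mouse 2 (0.103 and 0.113) and without the ADSCs of mouse 1 (0.0567 and 0.0534), the latter also without mouse 1 (0.116). In in vitro iSEPs the difference was -0.56 (adjusted p = 0.0792, or 0.04 under median scaling). Adamts6 and Adamts10, which are linked to fibrillin microfibrils, were at 8.92, 9.55 and 7.88 FPKM and at 7.96, 4.11 and 3.39 FPKM in ADSCs and did not exceed 1.31 FPKM in the other libraries. Both passed the filter through ADSCs alone, with log2 differences from ADSCs of -2.59 to -2.92 for Adamts6 and -2.12 to -2.17 for Adamts10. Adamts16, whose substrates are less well known, was the one that rose: from 0.155 ± 0.0848 FPKM in ADSCs to 1.08 ± 0.751 FPKM in keratinocytes (0.80 ± 0.28, adjusted p = 0.0309) and 1.21 ± 0.536 FPKM in in vivo iSEPs (0.91 ± 0.28, adjusted p = 0.0185). The keratinocyte call was lost under median scaling (adjusted p = 0.0929), and without the ADSCs of mouse 1 (0.0585), and both were lost without the ADSCs of mouse 2 (0.0853 and 0.0599) or of mouse 3 (0.094 and 0.0657) and without all cultures of mouse 2 (0.11 and 0.0968). Adamts13, Adamts17, Adamts18 and Adamts19 did not exceed 0.926 FPKM.

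**Figure D4:**
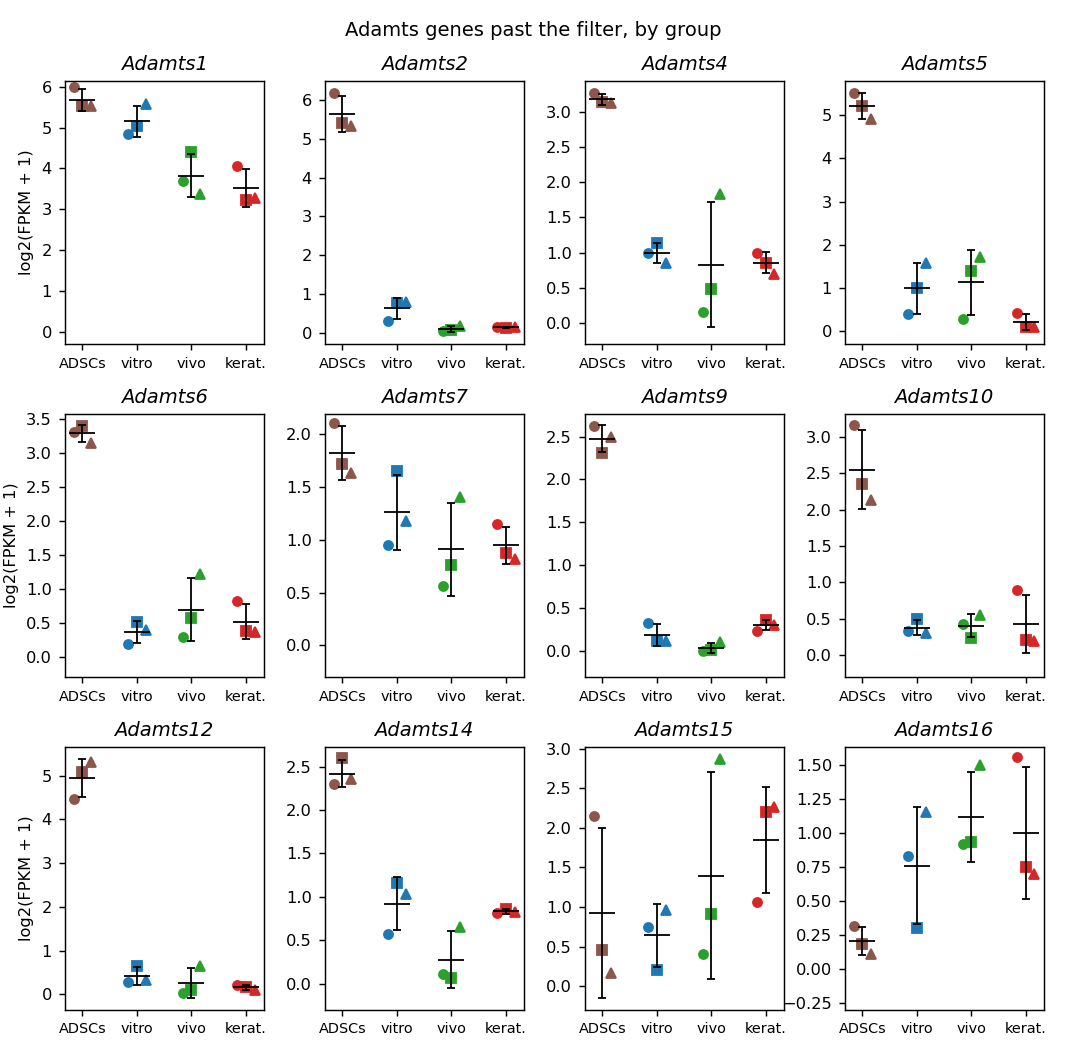
The 12 tested Adamts genes in each library, as log2(FPKM + 1) on the vertical axis, with symbols, means and SD bars (n = 3) by mouse and group. Adamts1 in in vitro iSEPs reaches the ADSC range, Adamts15 and Adamts16 are the panels in which ADSCs are not highest, and most of the others are lower outside ADSCs.

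Set against keratinocytes, fewer members were called in the iSEPs than against ADSCs. In in vitro iSEPs 8 of 33 were called, where 11.3% of all genes tested were, 5.22% higher and 6.12% lower: Mmp2, Mmp19, Mmp28, Adamts1 and Loxl4 were higher, and Mmp9, Mmp15 and Timp3 were lower. In in vivo iSEPs 4 of 33 were called, against 7.48% of all genes, 3.41% higher and 4.08% lower: Loxl2 and Loxl4 were higher, and Mmp9 and Mmp15 were lower. So Loxl4, Mmp9 and Mmp15 were called in both comparisons, which share the keratinocyte libraries. Mmp9 passed the filter through the keratinocytes and a single in vivo culture, so its calls are a description. The in vivo call of Mmp9 was lost in 13 of 15 alternatives. Groups did not overlap for 18 members in vitro and 10 in vivo, against 40.8% and 27.8% of all genes tested. Without the in vivo iSEPs of mouse 3, 7 members were called in vivo, those 4 among them. Of the 8 in vitro calls Loxl4 alone held in all 17 alternatives, and none of the 4 in vivo calls did; no member was called in vivo without mouse 2, where 3 had an unadjusted p below 0.05 (limma). In the same comparison in vitro, 4 of 7 tested stromal markers were higher than in keratinocytes, and their summed level was 83.8 to 228 FPKM against 38.8 to 46.3 FPKM and 28.7 to 172 FPKM in in vivo iSEPs. The marker Pdgfra was at 1.79, 4.74 and 3.18 FPKM in in vitro iSEPs and 0.917, 0.908 and 0.680 FPKM in keratinocytes. The part of stromal RNA in these member differences was not tested.

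**Figure D5:**
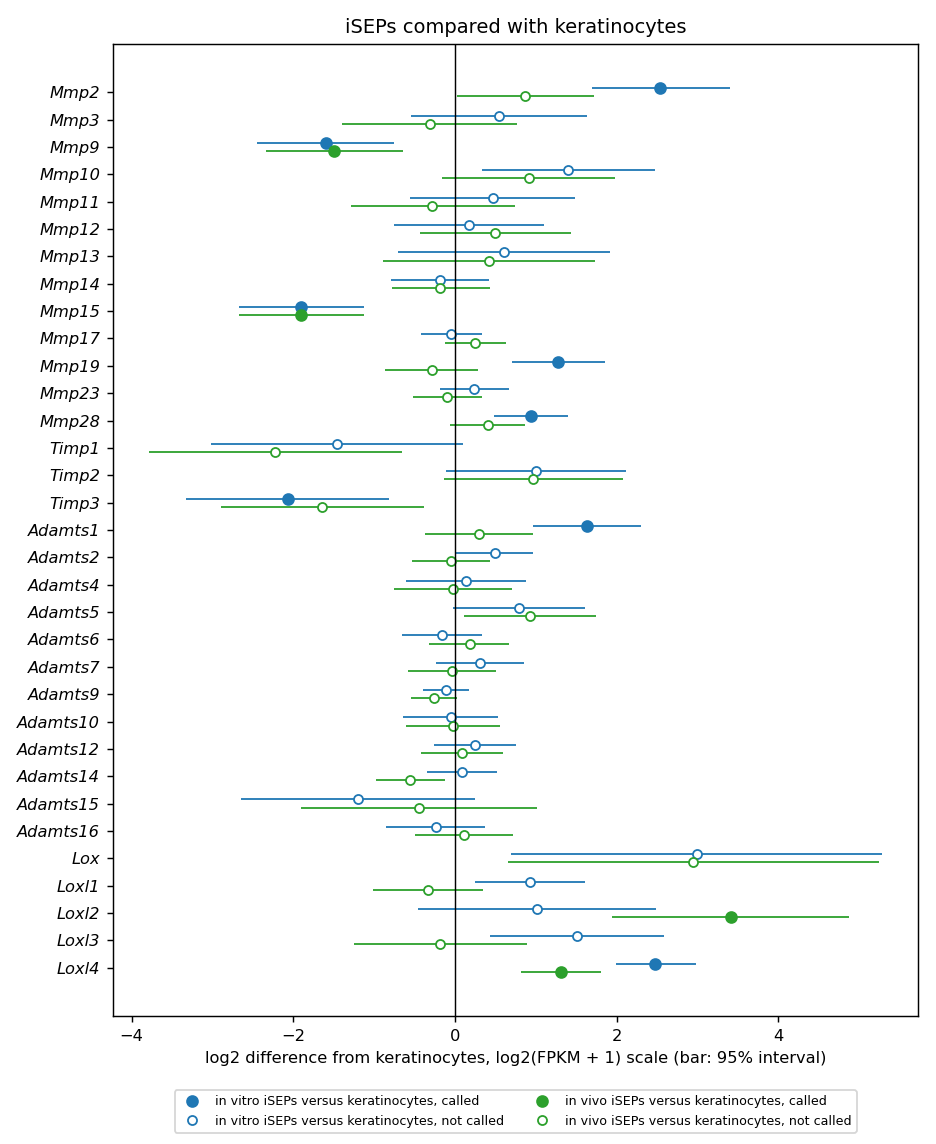
Difference of each tested member from keratinocytes in in vitro iSEPs (blue) and in vivo iSEPs (green), on the log2(FPKM + 1) scale, with bars for the 95% interval; filled points passed an adjusted p of 0.05. Loxl4 is filled to the right of 0 and Mmp9 and Mmp15 to the left of 0 in both, and the widest bars belong to Lox.

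Between the kinds of iSEPs 2 of 33 members were called, where 1.63% of all genes were, 0.679% higher and 0.946% lower in vivo, and the groups did not overlap for 9 members against 15.0% of all genes. Mmp19 was 6.27-fold lower in vivo than in vitro (log2 difference -1.57 ± 0.26, adjusted p = 0.0182), and Loxl4 was 2.41-fold lower (-1.17 ± 0.23, adjusted p = 0.0317). Loxl4 missed the threshold with the mouse as a block (adjusted p = 0.0571), and both were lost without mouse 2 (0.234 for Mmp19 and 0.158 for Loxl4), without mouse 3 (0.0769 and 0.196) and when the in vitro culture of mouse 3 was left out (0.0643 and 0.144). Loxl4 was lost without mouse 1 too (0.0903), and Mmp19 without the in vivo culture of mouse 2 (0.0617). Adamts1 (-1.33 ± 0.30, adjusted p = 0.0587) and Mmp2 (-1.67 ± 0.39, adjusted p = 0.061) were lower in vivo without overlap and did not pass. Leaving out the in vivo iSEPs of mouse 3 gave 6 calls, all lower in vivo, with Mmp2 at -2.11 (adjusted p = 0.00839).

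Summed over a subfamily, the protease and inhibitor levels moved unequally. The Mmp sum was 712 ± 186 FPKM (SD, n = 3) in ADSCs, 226 ± 20.4 FPKM in in vitro iSEPs, 201 ± 94.5 FPKM in in vivo iSEPs and 211 ± 10.7 FPKM in keratinocytes. The Timp sum was 1294 ± 175 FPKM in ADSCs, 102 ± 36.1 FPKM in in vitro iSEPs, 109 ± 84.9 FPKM in in vivo iSEPs and 96.1 ± 11.4 FPKM in keratinocytes. The ratio of the Timp sum to the Mmp sum was therefore 1.30, 1.80 and 2.69 in ADSCs, 0.490, 0.443 and 0.432 in keratinocytes, 0.287, 0.481 and 0.569 in in vitro iSEPs and 0.407, 0.395 and 0.680 in in vivo iSEPs. Every ADSC library had a ratio above 1 and every other library a ratio below it, and the last 3 groups overlapped. Without the in vivo iSEPs of mouse 3 the in vivo Timp sum was 60.3 FPKM, below the means of in vitro iSEPs and keratinocytes. An exact two-sided permutation test gave p = 0.1 for ADSCs against each of the others, the smallest value that 3 libraries against 3 allow. The lysyl oxidase sum ran from 1557 ± 113 FPKM in ADSCs through 74.1 ± 70.6 FPKM in in vivo iSEPs and 51.4 ± 24.8 FPKM in in vitro iSEPs to 5.66 ± 0.723 FPKM in keratinocytes, with in vivo and in vitro iSEPs overlapping and both above keratinocytes. It was 9.61, 63.1 and 149 FPKM in in vivo iSEPs, and without mouse 3 their mean was 36.4 FPKM, below that of in vitro iSEPs, so the order of the iSEP means rests on that library. The Adamts sum was 205 ± 32.7 FPKM in ADSCs, 43.3 ± 11.7 FPKM in in vitro iSEPs, 23.4 ± 6.69 FPKM in in vivo iSEPs and 19.2 ± 4.76 FPKM in keratinocytes, and in vitro iSEPs were above the last 2 groups without overlap.

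The substrates of these enzymes were counted in the same way. The counts in each list stand beside 32.8% of all genes higher and 20.7% lower in keratinocytes than in ADSCs, 32.1% and 21.7% in in vitro iSEPs, and 27.6% and 20.0% in in vivo iSEPs. All 7 tested fibrillar collagens fell in each of the 3 groups compared with ADSCs; Col1a1, the major chain of type I collagen, went from 1739 ± 133 FPKM to 1.98 ± 0.454 FPKM in keratinocytes (adjusted p = 2.75e-08), 11 ± 5.78 FPKM in in vitro iSEPs (adjusted p = 1.8e-07) and 1.92 ± 2.03 FPKM in in vivo iSEPs (adjusted p = 2.61e-08). In in vitro iSEPs 5 of the 7 stayed higher than in keratinocytes and 1 was lower, where 5.22% of all genes were higher and 6.12% lower. Col3a1 was among the 5 (15.1 ± 2.74 against 2.31 ± 0.623 FPKM, adjusted p = 0.00511). Of 12 procollagen processing and modifying genes (1 of them passing through ADSCs alone), 10 fell in keratinocytes, 10 in in vitro iSEPs and 9 in in vivo iSEPs, and 1 rose in each. Pcolce, the enhancer of procollagen C-proteinase, fell from 427 ± 50.1 to 4.11 ± 0.613 FPKM in keratinocytes (adjusted p = 1.18e-07). Of 15 elastic fibre genes, of which 4 passed the filter through ADSCs alone and had to be lower, 12 fell in each group, with the microfibril gene Fbn1 at 304 ± 36.3 FPKM in ADSCs and 0.595 ± 0.124 FPKM in keratinocytes (adjusted p = 1.83e-08). Of 6 proteoglycan and glycoprotein genes, 5 fell in keratinocytes, 5 in in vitro iSEPs and 6 in in vivo iSEPs; Bgn, a small proteoglycan that binds collagen, had means of 2048 ± 227 FPKM in ADSCs, 16.5 ± 3.13 FPKM in keratinocytes, 72.4 ± 46.5 FPKM in in vitro iSEPs and 12.4 ± 17.7 FPKM in in vivo iSEPs. Of 9 basement membrane genes, 5 rose and 4 fell in each group. The hemidesmosomal collagen Col17a1 rose from 0.658 ± 0.0585 FPKM in ADSCs to 839 ± 112 FPKM in keratinocytes (adjusted p = 2.08e-11), 1013 ± 122 FPKM in in vitro iSEPs (adjusted p = 1.41e-11) and 906 ± 150 FPKM in in vivo iSEPs (adjusted p = 1.86e-11).

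Other protease families stand beside the same shares of all genes, and the filter was passed through ADSCs alone by 2 of the 11 genes of protease activation, 3 of the 9 ADAM genes and 2 of the 5 ADAMTS-like genes. Of the 11 genes of protease activation and membrane control, 5 fell in keratinocytes, 7 in in vitro iSEPs and 6 in in vivo iSEPs, and 1 rose in keratinocytes. Plat, the tissue-type plasminogen activator, fell from 52.3 ± 15.3 FPKM in ADSCs to 4.08 ± 2.26 FPKM in keratinocytes (adjusted p = 4.29e-05), 2.85 ± 1.04 FPKM in in vitro iSEPs (adjusted p = 2.06e-05) and 0.97 ± 1.22 FPKM in in vivo iSEPs (adjusted p = 3.01e-06). Of 9 ADAM genes, the membrane-anchored relatives of the ADAMTS enzymes, 3 rose and 5 fell in keratinocytes, 3 rose and 6 fell in in vitro iSEPs, and 2 rose and 5 fell in in vivo iSEPs. Adam8 rose from 1.21 ± 0.778 FPKM in ADSCs to 90.5 ± 1.44 FPKM in keratinocytes, 92.2 ± 11.3 FPKM in in vitro iSEPs and 32.6 ± 6.63 FPKM in in vivo iSEPs, and the in vivo level was below that of keratinocytes (log2 difference -1.46, adjusted p = 0.00292). Of 5 genes for ADAMTS-like proteins and papilin, 2 rose and 2 fell in each group. Papln, which encodes the ADAMTS-like protein papilin, rose from 0.0577 ± 0.0199 FPKM in ADSCs to 3.16 ± 1.84 FPKM in keratinocytes, 10.4 ± 1.05 FPKM in in vitro iSEPs and 11.6 ± 3.85 FPKM in in vivo iSEPs, and exceeded keratinocytes in both kinds of iSEPs (adjusted p = 0.00823 in vitro and 0.00714 in vivo). Of 10 cathepsins 5 rose and 4 fell in keratinocytes, 2 rose and 3 fell in in vitro iSEPs, and 1 rose and 3 fell in in vivo iSEPs. Ctsk, which degrades collagen in lysosomes, fell from 107 ± 21.5 FPKM in ADSCs to 0.085 ± 0.0556 FPKM in keratinocytes (adjusted p = 5.02e-08) and stayed at 4.61 ± 2.41 FPKM in in vitro iSEPs, above keratinocytes (adjusted p = 0.00317).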

How the data were processed

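RNA from 12 cultures (4 groups, 3 mice each) was sequenced. STAR 2.5.1b, FastQC 0.11.5, HOMER and mm10 are named in the submitters' processing notes. The authors deposited FPKM values with 3 decimals, which per the file headers HOMER summed over RefSeq exons on the transcript's strand, 1 entry per gene. No source here says whether the kit marks strand, and if it does not, reads of overlapping genes on opposite strands cannot be told apart. In the table, 3 columns of per-sample values matched no sample and were left out. Low FPKM values gave the depth, since 100% of those examined were whole reads within 0.15 reads; genes with few reads are less precise.

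Values were fitted as log2(FPKM + 1), with 4 group means, in limma 3.58.1 and R 4.3.3 (trended variances, two-sided). The 12364 genes that reached 1 FPKM in at least 3 libraries were tested in 6 comparisons (Benjamini-Hochberg, threshold 0.05). Folds are ratios of mean FPKM; log2 differences understate changes of low genes, and errors after them are standard errors. The code was tested on simulated data. Per the series' design, cultures with 1 number came from the same mouse; deviations from group means correlated at -0.178 to 0.210 (median 0.0451) within a mouse and -0.294 to 0.312 (median -0.0136) between mice. Alternatives were a pseudocount of 0.1, no filter, a filter at 5 FPKM, median scaling, quantile normalization, the mouse as a replicate block, a fit of only the groups compared, no variance trend, and leaving out each mouse or library; calls held or lost refer to alternatives that tested the gene.

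Members and lists were chosen with earlier results of these data known. Timp and lysyl oxidase genes, and Mmp and Adamts genes with a highest group mean of at least 5 FPKM, are given by library, those at 1 to 5 FPKM by group or library, and others by range. From other lists, called genes with large changes were named.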

Additional observations from a re-analysis of the deposited data

How the results depend on the processing

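No result reversed in any alternative. Counts of members called moved beyond 1.5 times in these cases. For in vivo iSEPs against keratinocytes, a fit of only those groups called 2 members in place of 4 (6 at an unadjusted p below 0.05). For in vivo against in vitro iSEPs, no filter gave 1, the replicate block gave 1 and a fit of only those groups gave 0 in place of 2 (limma; 7 at an unadjusted p below 0.05 in the last). Leaving out mice or libraries gave 19 to 29 calls for keratinocytes against ADSCs, 16 to 24 for in vitro iSEPs against ADSCs, 18 to 29 for in vivo iSEPs against ADSCs, 1 to 9 for in vitro iSEPs against keratinocytes, 0 to 7 for in vivo iSEPs against keratinocytes and 0 to 6 for in vivo against in vitro iSEPs. Where the count was 0, between 3 and 9 members had an unadjusted p below 0.05. Without an ADSC culture fewer members passed the filter, 23 to 27 in place of 33, which by itself lowers those counts. Of the calls, 24 of 30, 22 of 23 and 23 of 30 against ADSCs held in every alternative that tested the gene (10 to 17 of them). Each of these counts includes the 8 members that passed the filter through ADSCs alone. Those had to be lower elsewhere, so their calls say nothing on how well the results held. The rise of Mmp15, which was below 1 FPKM in every ADSC library, is limited in the same way. The calls lost (6, 1 and 7) were all among the other 25 members. The replicate block changed 5 calls of members, each named beside its result: Timp2 in vitro and in vivo against ADSCs, Mmp9 and Timp3 in vivo against keratinocytes, and Loxl4 between the iSEPs. Depth limits Loxl2 in keratinocytes (10 to 14 reads) and Timp4, and other large folds rest on few reads too. Among them are Mmp17 in in vitro iSEPs (5 to 8 reads per library) and Mmp23 in in vivo iSEPs (1 to 5). In in vivo iSEPs the lowest library held 5 reads for Adamts2, 6 for Adamts12 and 8 for Loxl1.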
